A study of Pimephales promelas with 15 samples.

Results

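Livers of male fathead minnows kept in streamwater were compared directly with livers of males kept in treated wastewater. The fathead minnow (Pimephales promelas) is a North American freshwater fish and a standard test species for water quality. The arrays were chosen by their sample titles, 4 streamwater and 4 wastewater arrays out of 15 in all, each with the liver RNA of 1 fish. The other arrays held livers from lake stormwater (4 fish) and from control water (3 fish), and they entered no test of these 2 waters.

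All fish were mature males taken from 1 common tank, not fed, and held for 48 h with a single water change of 75% of the volume. Streamwater was surface water from below a wastewater treatment plant. Wastewater was the effluent of a treatment plant, of the kind spread on landscaping as irrigation water. The control was tap water passed over carbon and freed of chlorine. Each water had 4 aquaria of 40 L, filled with 25 L and stocked with 4 fish. The labels do not tie a fish on an array to an aquarium, so all p-values are over single fish, some of which may have shared an aquarium. The waters were tested whole, and their chemistry was not analysed here.

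The liver is where a fish breaks down many foreign compounds, and it makes most of the proteins of the blood plasma. In male fish, estrogenic compounds in effluents are known to switch on liver genes of egg yolk formation, and compounds that bind the aryl hydrocarbon receptor switch on enzymes such as cytochrome P450 1A. Surface water below a treatment plant carries effluent mixed with other water, and the comparison asks whether livers differ between such a mixture and an effluent itself. The sources used here do not say whether both waters came from the same plant. The files pair no probe with a gene: 11862 probes carry contig numbers, 3309 sequence numbers and 37 other names, and the reference gene table held 0 of these. Genes of these pathways, and markers of hepatocytes or of other cell types, could therefore not be picked out, and probes are given by their identifiers. In whole livers, fewer cells of a type and less RNA per cell cannot be told apart.

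Of 15208 non-control probes, 10194 (67.0%) were tested because at least 3 of the 8 arrays called them well above background, 7258 of them on all 8. The filter divides dim probes: 439 probes were well above background on exactly 3 arrays, with a median level of -4.09, and 543 on exactly 2, with a median level of -4.41. A level here is log2 of the processed signal minus log2 of the array's 75th percentile, so 0 is the array's own 75th percentile. The share of probes well above background was 63.4% ± 2.52 (SD, n = 4) after streamwater and 61.3% ± 2.55 (SD, n = 4) after wastewater. These shares did not differ beyond their spread (two-sided exact permutation test, p = 0.314, or 0.600 adjusted over 2 array measures). The 75th percentile of the signal lay at 1803, 2591, 1504 and 2158 intensity units in streamwater livers 1 to 4, and at 2447, 1777, 1762 and 1393 in wastewater livers 1 to 4. Its log2 values also overlapped (10.95 ± 0.34 against 10.82 ± 0.33, SD, n = 4 each, exact permutation p = 0.600). The smallest p that 4 against 4 arrays allows is 0.0286.

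Streamwater liver 4 stood apart from the 7 other arrays. Across the tested probes its levels correlated with those of the other streamwater livers at r between 0.679 and 0.806. Streamwater livers 1 to 3 correlated with each other at 0.887 to 0.926, wastewater livers with each other at 0.865 to 0.942, and livers 1 to 3 of streamwater with wastewater livers at 0.873 to 0.959. The correlations between the waters thus overlapped those within a water once streamwater liver 4 was set aside. Of the 10194 tested probes, liver 4 lay more than 4-fold below all 7 other livers at 565 and more than 4-fold above them at 101. No such counts were made for the other livers, so these are no measure of how unusual liver 4 was. With liver 4 the median SD between streamwater livers was 0.64 on the log2 scale, and without it 0.46, against 0.49 between wastewater livers. Its array was not dim: 64.5% of probes were well above background on it. The main results below are given with and without this liver.

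No probe differed between the 2 waters after adjustment over all probes tested (limma, Benjamini-Hochberg, 0 of 10194, 0%), and the lowest adjusted p was 0.143. Without streamwater liver 4 the count was again 0 (0%), with a lowest adjusted p of 0.202. At an unadjusted p under 0.05 there were 509 probes (4.99%), and 5% of the probes tested is 509.7. Of these, 279 (2.74%) were higher after streamwater and 230 (2.26%) higher after wastewater. Without liver 4 the unadjusted count was 437 (4.29%), with 172 (1.69%) higher after streamwater and 265 (2.6%) higher after wastewater. The direction of the balance thus turned with that one fish, from 54.8% to 39.4% higher after streamwater. It also turned with the scaling: centring each array on its median instead gave 43.2% with all 8 arrays and 26.2% without liver 4. With all 8 arrays it turned as well among probes well above background on all 8 (46.5%), with another background correction (normexp, 48.5%) and with array weights (48.3%). The other processing alternatives with all 8 arrays kept more probes higher after streamwater.

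The median 95% interval of a probe's log2 difference reached 0.99 to either side with 8 arrays and 0.89 without liver 4. These intervals are per probe and unadjusted. For a typical probe a change much under 2-fold was therefore not detectable with this number of arrays, even before adjustment. Adjustment over all probes asked for more: UF_Ppr_AF_111046, with a fitted difference of 2.66, had a limma adjusted p of 0.887. The absence of passing probes therefore does not exclude changes above 2-fold. The median difference over all probes was -0.02 with 8 arrays and 0.07 without liver 4. Centring on the median put the latter at -0.08.

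The apparent size of the contrast changed when liver 4 was left out. The values of this paragraph are not given for leaving out any other liver, so how far they are particular to liver 4 was not tested. With all 8 arrays, 1265 probes (12.4%) had means more than 2-fold apart, 654 higher after streamwater and 611 higher after wastewater. Without it, 711 (6.97%) did, 437 and 274. Of the 1265, 503 remained more than 2-fold apart in the same direction, and 96 changed sign. Over all tested probes 2413 (23.7%) changed direction when the liver was left out. The differences with and without it correlated at r = 0.774 across probes, a value that rests partly on the 7 arrays both share. Of the probes with an unadjusted p under 0.05, 295 were found both ways (58.0% of 509 and 67.5% of 437), all in the same direction, 144 higher after streamwater and 151 higher after wastewater.

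**Figure D1:**
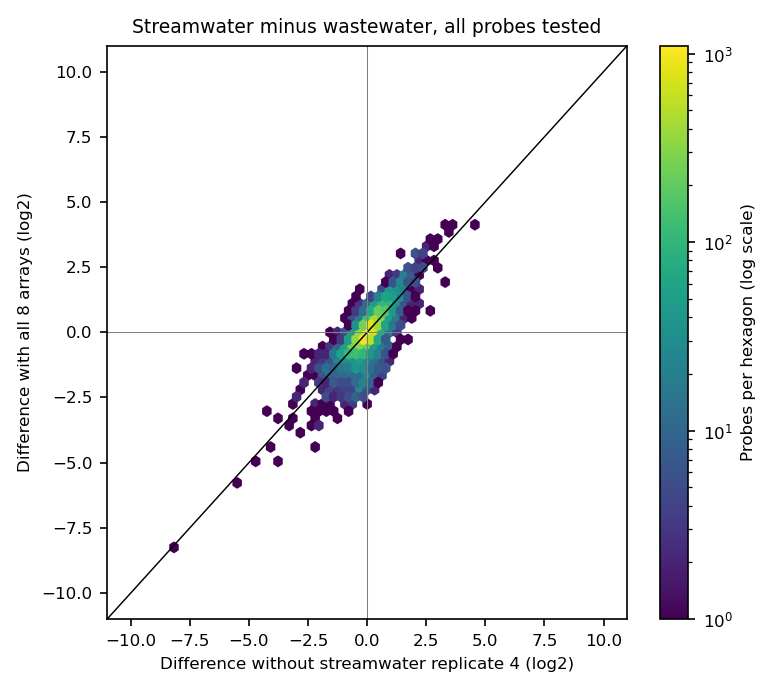
Log2 difference between streamwater and wastewater means for each of the 10194 probes tested, without streamwater liver 4 (horizontal axis) and with all 8 arrays (vertical axis); colour gives the number of probes per hexagon on a log scale and the diagonal marks equal values. Below the centre a cloud of probes has negative differences with all 8 arrays while lying near 0 without liver 4.

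Some probes had groups that did not overlap at all. If the fish were interchangeable, 4 against 4 arrays would separate fully at a share of 0.0286, both directions together. For 3 against 4 arrays that share is 0.0286 in each direction. The counts below are descriptions to be read beside these shares. Among 10157 probes measured on all 8 arrays, 348 (3.43%) had every streamwater liver on one side of every wastewater liver, 146 (1.44%) higher after streamwater and 202 (1.99%) higher after wastewater. Without liver 4 there were 576 of 10160 (5.67%), 185 (1.82%) and 391 (3.85%). A smaller group separates more easily, so the 2 counts are not on the same footing.

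The probe of lowest p both with and without liver 4 was UF_Ppr_AF_103198, detected in every streamwater liver and in no wastewater liver. Its levels were -2.70, -1.47, -1.96 and -0.75 in streamwater livers 1 to 4 and -6.11, -6.12, -5.03 and -5.81 in wastewater livers 1 to 4. All streamwater livers lay above all wastewater livers. The probe entered the test only through the water in which it was high, as did every probe below that was detected in 1 water alone, so its separation, SE and p describe it and support nothing. Its fitted log2 difference was 4.05 (SE 0.46, limma adjusted p = 0.143), and 3.73 without liver 4 (SE 0.40, adjusted p = 0.202). Since it was not well above background in wastewater livers, its level there is a bound, and it was at least 4.79-fold higher after streamwater (measured means -1.72 and -5.77), or at least 3.83-fold without liver 4. That bound, here and below, sets the mean of the bright group against the dimmest signal still called well above background, array by array, or the probe's own signal where higher. Control livers lay at -1.07, -3.55 and -4.73, across the space between the 2 waters, with detection in 2 of 3. Within the first slide the difference was 4.03 and within the second 4.07.

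Of all 15208 probes, 6 (0.0395%) were well above background in all 4 streamwater livers and in no wastewater liver. Leaving out an array relaxes this rule, so the count could only stay or rise. It was 7 without streamwater liver 4, and 22, 19 and 42 without streamwater livers 1, 2 and 3. It was 13 and 16 without wastewater livers 3 and 4, or 9 without wastewater liver 1 or 2. UF_Ppr_AF_101407 was the tightest after streamwater, at -3.28, -3.39, -3.06 and -3.29 after streamwater and -6.32, -5.49, -5.51 and -4.99 after wastewater. Its groups did not overlap, and it was at least 1.65-fold higher after streamwater, or 1.66-fold without liver 4 (fitted difference 2.32, SE 0.32, limma adjusted p = 0.180, and 0.333 without liver 4). The bounds of the remaining probes were at least 3.08-fold for UF_Ppr_AF_110601, 2.50-fold for UF_Ppr_AF_101642, 1.86-fold for UF_Ppr_AM_120491 and 1.44-fold for UF_Ppr_AF_110719. Without liver 4 these bounds were 2.38, 1.97, 2.24 and 1.62-fold. The adjusted p of these 4 was 0.887 each (0.989 each without liver 4), and the groups of UF_Ppr_AF_110719 overlapped. All 6 were also detected in at least 1 control liver, so none was seen in streamwater alone.

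In the opposite direction 2 probes (0.0132%) were well above background in all wastewater livers and in no streamwater liver. Here too the count could only stay or rise when an array was left out. It was 4 without streamwater liver 4 and 7 without streamwater liver 3. It was 5 and 6 without wastewater livers 2 and 4, 2 without wastewater liver 1, and 3 in each of the other 3 cases. UF_Ppr_AF_110062 lay at -0.87, -2.04, -1.36 and -2.50 after wastewater and at -4.34, -5.33, -5.72 and -5.47 after streamwater. Every wastewater liver was above every streamwater liver, the pattern it was chosen for, and the means differed by at least 5.06-fold (-1.69 and -5.21), or 4.64-fold without liver 4. The fitted log2 difference was -3.52 (SE 0.45, limma adjusted p = 0.179), and -3.44 without liver 4 (adjusted p = 0.333). UF_Ppr_AF_103066 spread widely after wastewater, at 2.02, 1.35, -1.14 and -3.20, against -5.73, -4.53, -4.27 and -6.41 after streamwater. The livers of the first slide were high and those of the second much lower, and the mean was at least 13.8-fold higher after wastewater (fitted difference -4.99, SE 1.11, adjusted p = 0.887). Without liver 4 it was at least 12.7-fold higher (fitted difference -4.60, adjusted p = 0.989). Each of these probes was detected in 2 of 3 control livers.

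Of the 5 probes of lowest p outside these lists and outside those detected on all 8 arrays and plotted below, each had 1 water at or near background. UF_Ppr_AF_109726 lay at -1.61, 0.00, 0.16 and -0.09 after wastewater and at -4.43, -3.98, -4.01 and -2.96 after streamwater, where it was well above background in liver 4 alone. The groups did not overlap, and the fitted difference was -3.46 (SE 0.48, limma adjusted p = 0.180), which rests on levels not well above background in streamwater livers 1 to 3. This probe too met the filter only through the water in which it was high, so its separation and p support nothing. Without liver 4 no streamwater liver was well above background, and the probe was at least 11.2-fold higher after wastewater (means -0.38 and -4.14, fitted adjusted p = 0.239). Stormwater livers lay within the wastewater range at this probe, between -1.41 and -0.14, and control livers ran from -3.08 to -0.24. UF_Ppr_AF_101917 lay at -2.62, -2.68, -4.26 and -3.03 after streamwater and at -5.91, -5.27, -6.01 and -5.60 after wastewater, where it was never detected. In streamwater it was well above background in 3 of 4 livers, so the streamwater mean includes a level not well above background. That mean lay 1.78-fold above the wastewater bound (fitted difference 2.55, SE 0.41, adjusted p = 0.389), or 1.73-fold without liver 4 (fitted adjusted p = 0.956). These folds are therefore no strict lower bounds. UF_Ppr_AF_107244, UF_Ppr_AF_116360 and UF_Ppr_AF_117486 were detected in no wastewater liver and in 3 of 4 streamwater livers each. Their streamwater means lay 2.31, 1.47 and 2.23-fold above the wastewater bound (adjusted p = 0.887 each), or 2.05, 1.63 and 1.87-fold without liver 4 (adjusted p = 0.989 each). For the same reason these folds are no strict lower bounds. Without liver 4, these probes and UF_Ppr_AF_101917 were well above background in 2 streamwater livers each and in no wastewater liver. They stayed in the fit without liver 4 because the filter counted all 8 arrays.

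Among the 7233 probes detected and measured on all 8 arrays, 101 (1.4%) had all streamwater livers above all wastewater livers and 171 (2.36%) the reverse. Without liver 4 these counts were 121 (1.67%) and 340 (4.7%) of 7236. The shares given above for interchangeable fish hold here too. The 10 of lowest p in each direction are plotted liver by liver. Those higher after streamwater differed by 0.95 to 2.66 on the log2 scale, with unadjusted p between 0.00108 and 0.00428, and none passed adjustment (limma adjusted p = 0.887 each, 0.989 each without liver 4). Without liver 4 their differences ran from 0.89 to 2.20 in the same direction.

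**Figure D2:**
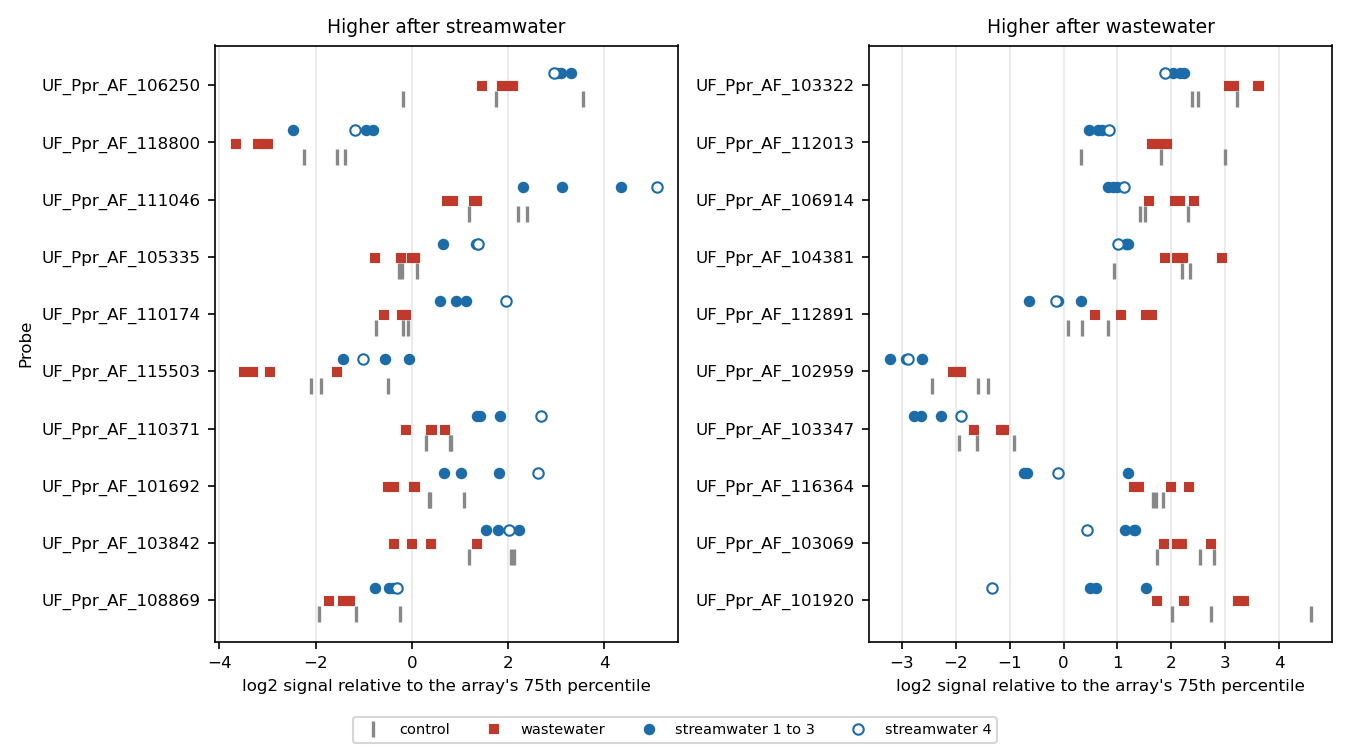
Level of each liver (log2 signal relative to the array's 75th percentile) at the 10 probes of lowest p in each direction that were well above background on all 8 arrays and whose groups did not overlap; filled circles are streamwater livers 1 to 3, open circles streamwater liver 4, squares wastewater livers and ticks control livers. The probes were chosen for this separation. The control ticks often lie among or close to the squares, at other probes lie nearer the circles, and at some span both waters. They describe the plotted probes only.

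The widest of these was UF_Ppr_AF_111046, at 3.11, 4.36, 2.32 and 5.09 in streamwater livers 1 to 4 and at 1.35, 0.86, 0.74 and 1.29 in wastewater livers 1 to 4. Streamwater livers varied over a range of 2.77 and wastewater livers over 0.61, with liver 4 the highest. The difference was 2.66 (SE 0.58) and 2.20 without liver 4 (SE 0.48). A second probe of the same sequence name, UF_Ppr_AM_120516, was too dim to be tested, with means of -4.33 after streamwater and -4.97 after wastewater. UF_Ppr_AF_106250 was the probe of lowest p, with 3.01, 3.11, 3.30 and 2.96 after streamwater against 1.86 ± 0.29 (SD, n = 4) after wastewater, where the highest liver lay below the lowest streamwater liver. Both waters were tight at this probe, while control livers lay at 1.74, -0.18 and 3.56, which is within the wastewater range, below both waters and above both. Its difference was 1.23 (SE 0.25), and 1.28 without liver 4. UF_Ppr_AF_105335 lay at 1.33, 1.38, 0.64 and 1.37 after streamwater and at 0.07, 0.00, -0.76 and -0.23 after wastewater. Control livers, at -0.28, -0.21 and 0.10, overlapped the wastewater livers, and stormwater livers, at 0.65 to 1.44, overlapped the streamwater livers. The difference between the 2 waters was 1.41 (SE 0.31), and 1.35 without liver 4.

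At UF_Ppr_AF_110174 the 4 waters overlapped in the same way. Streamwater livers were at 0.93, 1.13, 0.59 and 1.95, wastewater livers at -0.58, -0.12, -0.20 and -0.14, control livers at -0.74 to -0.09 and stormwater livers at 0.20 to 1.61. UF_Ppr_AF_118800 differed: at -0.80, -0.96, -2.48 and -1.18 after streamwater and -3.65, -3.21, -2.99 and -3.09 after wastewater, it had its control livers (-2.25 to -1.39) within the streamwater range. UF_Ppr_AF_103842 had streamwater livers at 1.55 to 2.23, control livers at 1.18 to 2.13 and wastewater livers at -0.36 to 1.35, with the control mean nearer streamwater. Over the 10 probes the control mean was nearer the wastewater mean for 7 and nearer the streamwater mean for 3. It lay between the 2 means for 8 and below both for 2. These counts rest on 3 control livers and on probes chosen for the separation of the 2 waters. No share over all tested probes stands beside them, so they describe these 10 probes only. The differences at UF_Ppr_AF_110174, UF_Ppr_AF_118800 and UF_Ppr_AF_103842 were 1.41, 1.88 and 1.55, and 1.14, 1.82 and 1.52 without liver 4. The other probes of the group, UF_Ppr_AF_115503, UF_Ppr_AF_110371, UF_Ppr_AF_101692 and UF_Ppr_AF_108869, had differences of 2.05, 1.48, 1.72 and 0.95. Without liver 4 these were 2.13, 1.18, 1.36 and 0.89. Some tested probes had contig names that differed from those of the group only in the last part. These differed by 0.44 for UF_Ppr_AF_105335 and 1.17 for UF_Ppr_AF_108869, but by -0.16 to -1.99 for UF_Ppr_AF_110371.

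The 10 probes higher after wastewater differed by 0.94 to 2.31 on the log2 scale (0.95 to 1.83 without liver 4), with unadjusted p between 0.000821 and 0.00598 and a limma adjusted p of 0.887 each (without liver 4, 0.956 for UF_Ppr_AF_112013 and 0.989 for the others). UF_Ppr_AF_112013 was tight in both waters, at 1.91, 1.64, 1.83 and 1.86 against 0.71, 0.47, 0.63 and 0.84. The difference was -1.15 (SE 0.23), and -1.21 without liver 4, whose own level was the closest to wastewater. The 3 control livers lay at 1.81, 2.99 and 0.32, thus within the wastewater range, above both waters and below both. UF_Ppr_AF_103322 lay at 3.07, 3.62, 3.16 and 3.62 after wastewater and at 2.16, 2.03, 2.24 and 1.87 after streamwater (difference -1.29, SE 0.26, and -1.23 without liver 4).

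UF_Ppr_AF_101920 was the widest, at 1.72, 3.23, 2.24 and 3.35 after wastewater and at 0.48, 0.60, 1.53 and -1.33 after streamwater. Liver 4 was the lowest, and the difference moved from -2.31 (SE 0.64) to -1.76 (SE 0.49) without it. Control livers lay within or above the wastewater range, at 2.74, 4.59 and 2.01. UF_Ppr_AF_116364 lay at 1.39, 2.32, 1.31 and 2.00 after wastewater, at 1.65 to 1.85 in control livers, and at -0.74, -0.68, 1.19 and -0.11 after streamwater. Streamwater liver 3 almost reached the wastewater livers, so the difference was -2.56 within the first slide and -1.12 within the second. Over the 10 probes the control mean was nearer the wastewater mean for 8 and nearer the streamwater mean for 2, and it lay above both for 3. As in the other direction, these counts describe the 10 chosen probes only and have no share over all tested probes beside them. The remaining 6 probes (UF_Ppr_AF_106914, UF_Ppr_AF_104381, UF_Ppr_AF_112891, UF_Ppr_AF_102959, UF_Ppr_AF_103347 and UF_Ppr_AF_103069) differed by -1.09, -1.15, -1.35, -0.94, -1.13 and -1.18. Without liver 4 these differences were -1.14, -1.11, -1.35, -0.95, -1.30 and -0.98. At UF_Ppr_AF_116364 the difference over both slides was -1.84, and -1.83 without liver 4.

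The arrays lie on 2 slides, each with 2 livers of either water, so the comparison could be made on separate fish. The first slide holds replicates 1 and 2 and the second replicates 3 and 4. Across the 10194 probes the 2 slides' differences correlated at Pearson r = 0.217 and Spearman rho = 0.213, and 57.7% of probes had the same sign on both. Without liver 4, which leaves the second slide with 1 streamwater liver, r was 0.0529, rho 0.0721, and 53.0% had the same sign. These are correlations across probes, which are not independent of each other, and they describe these 8 livers.

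**Figure D3:**
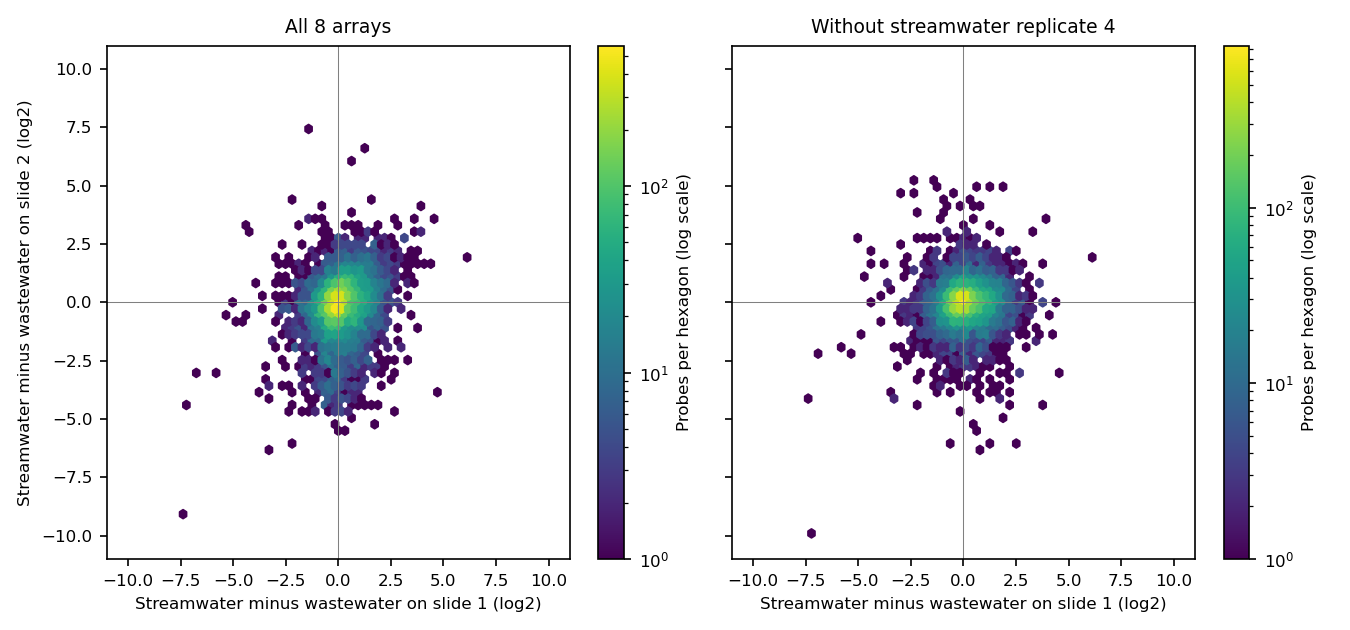
Streamwater minus wastewater difference (log2) on the first slide (horizontal axis) against the second slide (vertical axis) for the 10194 probes tested, with all 8 arrays (left) and without streamwater liver 4 (right); colour gives probes per hexagon on a log scale. The cloud on the left has a tail towards negative differences on the second slide, the slide of liver 4, and the cloud on the right has little slope.

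Most differences of more than 2-fold on 1 slide did not recur in the same direction on the other. The first slide had 1636 and the second 2085. Of these, 421 were shared in direction, 25.7% of the first slide's and 20.2% of the second's, while 194 went opposite ways. No share for unrelated slides stands beside these counts, so whether they recur more often than that was not tested. Without liver 4 the second slide had 1061, of which 198 were shared in direction (12.1% and 18.7%) and 178 opposite. With a mean per water and slide in 1 limma fit, no probe passed within the first slide, within the second or in the difference between them (0 each, 0%). The unadjusted counts were 342 (3.35%), 284 (2.79%) and 171 (1.68%), and without liver 4 757 (7.43%), 325 (3.19%) and 472 (4.63%). When single arrays were left out, probes passed within the second slide and in the difference only without streamwater liver 3. That leaves liver 4 as the only streamwater liver of the second slide, so a difference between waters cannot be told apart there from that 1 fish. Slide does not differ between the waters, since each slide holds both equally.

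When each array was left out in turn from the comparison of the 8, 1 probe passed adjustment in 3 of 8 cases, a different probe each time, and each was the probe at which the omitted streamwater liver had gone against the others. These 3 probes were chosen after their values were seen. Each also met the filter only through the water in which it was high, so the p-values given for them below support nothing. The unadjusted count ran from 322 without streamwater liver 2 to 1080 without streamwater liver 3. It moved by more than 1.5 times without streamwater liver 2, streamwater liver 3 (675 higher after streamwater, 405 higher after wastewater) and wastewater liver 3 (339).

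**Figure D4:**
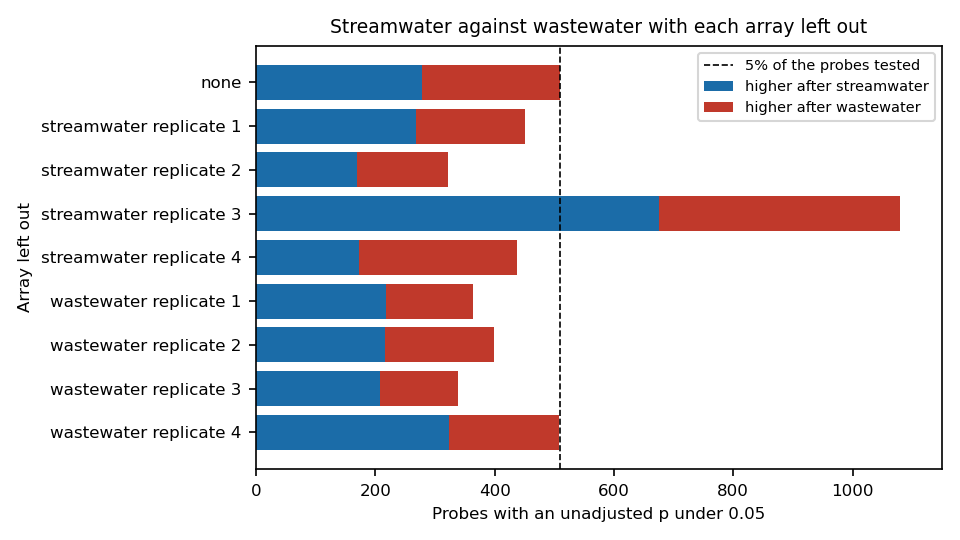
Number of probes with an unadjusted p under 0.05, split by direction, with all 8 arrays (top bar) and with each array left out; the dashed line marks 5% of the probes tested, 509.7. Leaving out streamwater liver 3 gave 1080 probes, and every other bar lies at or below the line.

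UF_Ppr_AF_119087 had the widest fitted difference of all tested probes, which rests in part on streamwater levels not well above background. Wastewater livers were at 6.67, 7.65, 5.97 and 7.33 and streamwater livers at -5.39, 5.10, -3.32 and -1.67. Streamwater liver 2 alone came near the wastewater livers without reaching them, and livers 1 and 3 were not well above background. The fitted difference was -8.22 (SE 1.94, limma adjusted p = 0.887), -8.11 without liver 4 (adjusted p = 0.989), and -10.36 without liver 2 (adjusted p = 0.0358, over alternatives 0.0358 to 1.00). The 3 control livers were not well above background, at -5.79, -6.47 and -6.43, and 1 stormwater liver was high at 6.75 with the others between -4.60 and -1.76. High levels at this probe were therefore seen in 6 of 15 livers, of which 4 were all those from wastewater.

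UF_Ppr_AF_114480 lay at -1.33, -2.34, -1.33 and -1.66 after wastewater and at -2.26, -5.98, -5.80 and -6.24 after streamwater. Streamwater liver 1 fell within the wastewater range and was the only streamwater liver well above background. The fitted difference was -3.40 (SE 0.84, limma adjusted p = 0.887), or -3.01 without liver 4. Without liver 1 the streamwater level is a bound, and the probe was at least 5.55-fold higher after wastewater (means -1.67 and -6.01, fitted adjusted p = 0.0291, over alternatives 0.0291 to 1.00). UF_Ppr_AF_110489 was not detected in any wastewater liver (-5.88, -5.89, -6.02 and -5.59). Streamwater livers were at -2.14, -2.21, -5.78 and -1.43, so that liver 3 lay with the wastewater livers. The streamwater mean includes liver 3, which was not well above background. It lay 2.13-fold above the wastewater bound (means -2.89 and -5.84, adjusted p = 0.887), or 1.52-fold without liver 4, and these folds are no strict lower bounds. Without liver 3 the probe was at least 4.15-fold higher after streamwater (fitted adjusted p = 0.0225, over alternatives 0.0225 to 1.00).

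Fish of one water differed widely at single probes. Among the 7258 probes detected on all 8 arrays, the median range between the lowest and the highest wastewater liver was 0.88 on the log2 scale, and between streamwater livers 1.24, or 0.74 without liver 4. The median size of the difference between the 2 water means was 0.29, or 0.23 without liver 4. A range of single fish is wider than a difference of means by construction, so these values describe scale only. More than 16-fold ranges occurred at 55 probes within wastewater and at 442 within streamwater, or 40 when liver 4 was left out. None (0) of the 7258 probes had water means more than 16-fold apart.

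Among probes detected on all 8 arrays, the 5 widest ranges within streamwater all came with low levels in liver 4. UF_Ppr_AF_101095 lay at 6.73, 6.49, 7.72 and -1.83 in streamwater livers 1 to 4 and between 7.02 and 7.36 in wastewater livers. UF_Ppr_AF_116949 fell to -4.13 in liver 4 from 4.86 or more in livers 1 to 3, UF_Ppr_AF_107840 to -3.74 from 4.84 or more, UF_Ppr_AF_118969 to -2.82 from 4.28 or more, and UF_Ppr_AF_109060 to -3.84 from 4.18 or more. At all 5 probes one stormwater liver, replicate 2, was low too (between -3.26 and -0.74) with its 3 group mates at 3.59 or above. No wastewater liver was below 2.37 at any of the 5, so the low level was shared with a fish of another water and with none of wastewater.

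Among the same probes the 5 widest ranges within wastewater were of another kind, with high and low fish in each water. At UF_Ppr_AF_111825 wastewater livers lay at -2.80, 6.60, 3.38 and -2.00 and streamwater livers at 4.29, 2.95, -3.37 and 2.64. UF_Ppr_AF_108171 and UF_Ppr_AF_116990 had the same 5 high livers (streamwater 1, 2 and 4, wastewater 2 and 3) and the same 3 low ones (streamwater 3, wastewater 1 and 4). Levels at UF_Ppr_AF_108171 ran from -1.51 to 7.87 after wastewater, and at UF_Ppr_AF_116990 from -2.54 to 6.68. All 4 stormwater livers were high at these 3 probes, at 2.92 or above, and control livers were spread from 0.09 to 6.91.

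UF_Ppr_AF_112433 divided the fish differently. It was high in wastewater liver 1 (7.29) and streamwater liver 1 (6.26), in 2 of 3 control livers (both 7.26) and in 3 of 4 stormwater livers (6.69 to 6.98), and between -4.17 and 0.33 in the rest. UF_Ppr_AF_101592 was high in wastewater livers 2, 3 and 4 (7.44, 6.94 and 7.05) and streamwater livers 2 and 3 (6.07 and 7.64), and low in wastewater liver 1 (-1.50) and streamwater livers 1 and 4 (-1.15 and -0.71). High and low fish occurred in both waters at each of these probes, with gaps of many log2 units between them. Within wastewater this was fixed by the choice of the widest ranges, while the ranking did not use the streamwater levels.

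**Figure D5:**
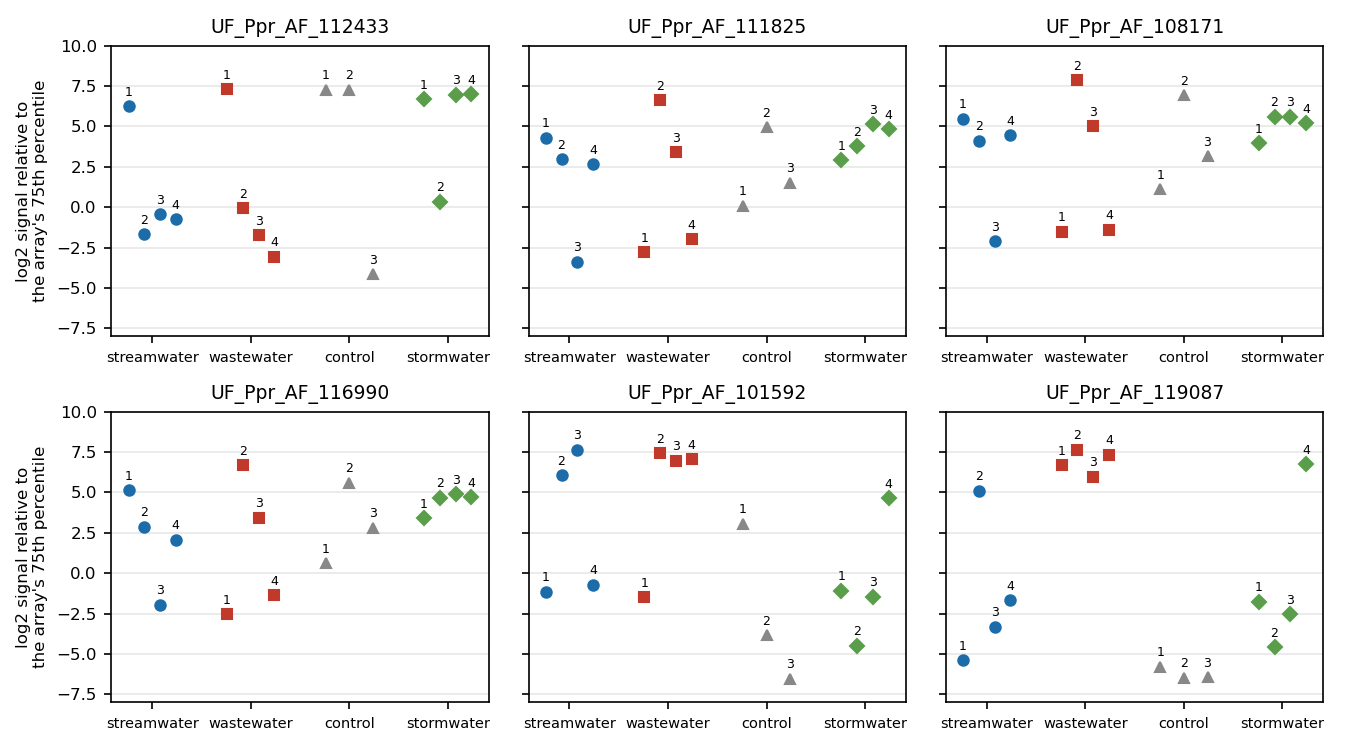
Level of each of the 15 livers (log2 signal relative to the array's 75th percentile) at the 5 probes of widest range within wastewater and at UF_Ppr_AF_119087; numbers are replicate numbers within a water. At the first 5 probes high and low livers occur in both streamwater and wastewater, which for wastewater was fixed by the choice. At UF_Ppr_AF_119087 all 4 wastewater livers lie above 5.9.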

How the data were processed

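The scanner files hold spot intensities deposited by the authors, written by Agilent Feature Extraction (version 10.1.1.1 per the file headers, 9.5 per the submitters' processing notes). The signal used had background subtracted array by array and no normalization across arrays, per the file headers. RNA with an integrity number of 8.0 to 9.9 was used and 1000 ng were labelled with Cy3, per the labels' protocols. The authors' deposited table of log2 values, for which the sources used here give no between-array method, was an alternative; its columns correlated with log2 of the processed signal at 0.998 to 1.00 across probes, with medians of 8.36 to 8.59. Its direction and log base follow from that comparison.

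From the processed signal, log2 was taken, the array's 75th percentile over 15208 non-control probes was subtracted, and outlier spots (non-uniform or population) were left out, with 1 spot per probe. Probes that at least 3 of the 8 arrays called well above background were fitted with limma 3.58.1 in R 4.3.3 (a mean per water, eBayes, two-sided, Benjamini-Hochberg, threshold 0.05). For array measures the exact permutation test was used. The number of arrays limits the precision.

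The arrays, lists and rules were chosen with earlier results of these data known. Named are the 10 probes of lowest p per direction that were detected on all 8 arrays with groups not overlapping, all probes detected throughout one water and nowhere in the other, the next 5 by p, the lowest p without streamwater replicate 4, and the 5 widest ranges within each water. Gene lists and cell type markers could not be used, since 0 probe names matched assembly fPimPro1.hap1.1. Slide was taken from the scanner files. Same-numbered arrays of the 2 waters deviated from their group means with r = 0.127, 0.207, 0.0278 and -0.292, and differently numbered arrays with r from -0.295 to 0.429. These few values show no pairing by number but cannot exclude one. The fit was tested on simulated data. Alternatives were quantile normalization, median centring, a normexp background (offset 50, on median spot signals), other filters and detection flags, outlier spots kept, slide or replicate number as a block, other variance estimates, array weights, all 15 arrays sharing the spread, the authors' values and each array left out; counting the filter over the 7 remaining arrays was added after the data were seen. Figures were drawn with matplotlib.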

Additional observations from a re-analysis of the deposited data

Results flagged for a closer look

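In 12 of 96 groups of 4 livers (92 at the named probes and 4 of array measures, all 12 at named probes), 1 liver lay apart from the other 3 by more than Dixon's 95% critical value, and chance flags about 1 in 20 groups. Several of these probes were named for a wide range within a water, so such livers were to be found among them. The flagged values below are levels, log2 of the signal relative to the array's 75th percentile.

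Streamwater liver 4 accounted for 4 of the 12. It lay at -3.74 at UF_Ppr_AF_107840 (the other 3 at 4.84 to 6.23), at -1.83 at UF_Ppr_AF_101095 (6.49 to 7.72), at -3.84 at UF_Ppr_AF_109060 (4.18 to 5.63) and at 1.01 at UF_Ppr_AF_104381 (1.17 to 1.19).

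Other streamwater livers stood apart at 3 probes. Liver 1 was high at UF_Ppr_AF_112433, at 6.26 against -1.68 to -0.45, and at UF_Ppr_AF_114480, at -2.26 against -6.24 to -5.80. Liver 3 was low at UF_Ppr_AF_105335, at 0.64 against 1.33 to 1.38.

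Wastewater liver 1 was low at 3 probes: at -1.50 at UF_Ppr_AF_101592 (the other 3 at 6.94 to 7.44), at -1.66 at UF_Ppr_AF_103347 (-1.15 to -1.12) and at -1.61 at UF_Ppr_AF_109726 (-0.09 to 0.16). Wastewater liver 4 was high at UF_Ppr_AF_116949, at 7.06 against 4.77 to 5.01. Wastewater liver 3 was high at UF_Ppr_AM_120491, at -3.79 against -4.38 to -4.30, where no wastewater liver was well above background.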

How the results depend on the processing

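With all 8 arrays or without streamwater replicate 4, no alternative other than leaving out an array gave a probe that passed adjustment. For the 33 named probes given with a difference, apart from the 3 chosen by leaving out an array, 680 of 680 alternatives kept direction and side of the threshold (lowest limma adjusted p 0.0548). Without streamwater replicate 4, 642 of 643 did, and UF_Ppr_AF_109726 passed when wastewater replicate 1 was also left out (-4.17, limma adjusted p = 0.0237). Most of these probes were named for their separation in these same livers. Their kept direction was thus largely fixed by that choice and lends them no support. With normexp the unadjusted count fell to 231, and to 243 without streamwater replicate 4; array weights gave 935 and 1093. Probes whose groups did not overlap were 205 with normexp, against 348 (3.43%) in the main setting. The share for interchangeable fish, given above, is 0.0286 for 4 against 4 arrays. Without streamwater replicate 4 and with slide as a block they were 576. The count without that array was also 576 with no block, so the block did not move it. By the scanner software's flag for a positive and significant signal, 3 probes were detected in streamwater only and 1 in wastewater only; without streamwater replicate 4, 4 in wastewater only. Restricted to probes detected on all 8 arrays, the unadjusted count within the first slide was 204 and for the difference between slides 100. The cause of these shifts was not tested.

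Replicate numbers as a block, a pairing that the labels do not explain, left 0 passing with 8 arrays (469 unadjusted) and moved the unadjusted count without streamwater replicate 4 to 998.

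Leaving out each array gave 0 to 1 passing, 322 to 1080 unadjusted and 482 to 1308 not overlapping. From the 7 arrays without streamwater replicate 4 it gave 0 to 1, 267 to 774 and 749 to 1996. Smaller groups separate more easily, so the counts not overlapping are not on the same footing as the 348 (3.43%) with all 8 arrays. They cannot be read as shifts between the waters. Probes detected in streamwater only ran from 7 to 42 and in wastewater only from 2 to 7, counts that can only stay or rise when an array is left out. Unadjusted counts ran from 217 to 757 within the first slide, 156 to 3164 within the second and 116 to 2038 for their difference. Without streamwater replicate 3, 1192 passed within the second slide and 303 for the difference (0 in the other cases), with streamwater replicate 4 the lone streamwater array, assumed to vary like the others. The difference in the log2 75th percentile ran from -0.00448, without streamwater replicate 2, to 0.27.

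Unnamed probes, 4 fish a water and no tie of fish to aquaria limit all of these results.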

Other observations

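A sequence is represented by 2 probes on the array in 709 cases, and in 193 of these both probes were tested. The 2 probes' differences between the waters had the same direction in 105 pairs (54.4%), with r = 0.225 across pairs, and the median correlation of paired probes over the 8 livers was 0.0578. One probe of each such pair carries a suffix that the sources used here do not explain, and of the 710 probes with it 39.9% were tested, against 68.4% of the others. In 0 of the 193 pairs did both probes have an unadjusted p under 0.05 in the limma fit, and in 13 pairs 1 did. Over all tested probes the share with such a p was 4.99%. Pairs with both would thus be rare for unrelated probes too, and the 0 says little about the pairs.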
